A study of Mus musculus with 14 samples.

Results

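The genes described here encode the proteins of the cytoplasmic ribosome, 85 protein-coding genes of the mouse. They were chosen by symbol (Rpl or Rps with a number, plus Rpsa, Rplp0, Rplp1 and Rplp2, and without the S6 kinases) from a RefSeq table of 21900 protein-coding genes. The rule uses gene symbols and no measured value. Of the 85 genes, 82 could be placed beside the peaks and 3 could not (Rpl17, Rpl21 and Rps21), against 20514 of all 21900 genes. The question was at which of these genes Sin3A and Sin3B peaks lay, and how this differed between growing and differentiated muscle cells.

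Binding of the corepressor scaffolds Sin3A and Sin3B was measured by chromatin immunoprecipitation and sequencing in C2C12, an established mouse myoblast line of C3H background that fuses into myotubes at low serum. Per the labels there were 2 Sin3A and 2 Sin3B samples of proliferating myoblasts in 10% fetal bovine serum. Myotubes, with 2 Sin3A and 5 Sin3B samples, had been kept in 2% horse serum and separated from undifferentiated cells with diluted trypsin. A further 3 input samples, 1 of myoblasts and 2 of myotubes, were not analysed here. No cells were genetically altered according to the labels, and all came from this 1 line. No RNA was measured in these samples, so the labelled cell type could not be checked against markers.

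The deposited files of a group were byte-identical. This left 4 distinct peak lists, with 691 Sin3A peaks and 2387 Sin3B peaks in myoblasts and 759 Sin3A peaks and 3769 Sin3B peaks in myotubes. Each group therefore counted as 1 list, no spread between samples could be measured and no test was made; every comparison below is between these lists. The peaks carry no score or height and the read depth is unknown. The labels give the Sin3A and Sin3B antibodies 1 shared catalogue number with different lots, and the Sin3A myoblast samples used 2 lots, so how far each list is specific to its protein is not known from these files.

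Ribosomal proteins are assembled with ribosomal RNA in the nucleolus into a small subunit, which reads the mRNA, and a large subunit, which joins amino acids. Their genes are among the most highly transcribed of a growing cell. Typically they have short promoters without a strict TATA box, bind ETS factors such as GABP together with YY1 and Sp1, and start transcription at a C within a run of pyrimidines. This run forms the 5′ terminal oligopyrimidine tract, through which mTOR and Larp1 control translation of these mRNAs. Sin3 proteins carry histone deacetylases to promoters through sequence-specific factors. Myoblasts leave the cell cycle when they fuse into myotubes.

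The promoters of 6 genes with peaks in 3 of the 4 lists, by the counting rule given below, are printed first. No ribosomal protein gene had more lists by that rule, and for these 6 the promoter sequence was at hand. With each peak given only to its nearest start, Rpl12, Rpl4 and Rps18 were left with 2 lists. Each line gives the 150 bases before the annotated start and the 10 bases from it on, 5′ to 3′ along the gene, from RefSeq (GRCm38.p6). Capitals mark the ETS/GABP core CCGGAAG, in either orientation, and the BANP/ZBTB33 motif CTCGCGAG.
Rpl19, chr11:98026560-98026719, plus strand: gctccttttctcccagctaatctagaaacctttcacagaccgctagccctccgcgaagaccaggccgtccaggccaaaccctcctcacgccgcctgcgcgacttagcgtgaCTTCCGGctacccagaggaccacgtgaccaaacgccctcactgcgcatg
Rps10, chr17:27635235-27635394, minus strand: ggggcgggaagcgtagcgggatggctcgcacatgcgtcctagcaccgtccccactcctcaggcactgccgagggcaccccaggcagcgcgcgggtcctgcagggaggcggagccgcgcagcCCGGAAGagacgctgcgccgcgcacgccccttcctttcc
Rps18, chr17:33955656-33955815, minus strand: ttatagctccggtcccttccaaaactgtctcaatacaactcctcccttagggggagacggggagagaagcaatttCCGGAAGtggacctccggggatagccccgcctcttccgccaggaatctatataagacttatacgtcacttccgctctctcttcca
Rpl12, chr2:32961562-32961721, plus strand: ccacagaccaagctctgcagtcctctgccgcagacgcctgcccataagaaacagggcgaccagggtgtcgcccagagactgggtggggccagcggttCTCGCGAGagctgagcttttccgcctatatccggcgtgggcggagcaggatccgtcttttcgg
Rpl4, chr9:64173237-64173396, plus strand: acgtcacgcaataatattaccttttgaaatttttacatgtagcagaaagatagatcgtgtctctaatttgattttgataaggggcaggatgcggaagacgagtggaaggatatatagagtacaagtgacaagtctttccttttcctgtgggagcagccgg
Rpl5, chr5:107900378-107900537, plus strand: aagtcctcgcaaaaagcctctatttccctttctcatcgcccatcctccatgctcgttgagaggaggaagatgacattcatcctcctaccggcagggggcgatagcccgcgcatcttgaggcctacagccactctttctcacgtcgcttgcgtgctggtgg

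The promoters of 3 genes without a peak in any list are given for contrast. All 3 lie among many other peaks that were well placed: 20 of 24 other peaks within 1 Mb of Rpl7a lay near a gene start, as did 34 of 36 around Rps28 and 25 of 27 around Rpl13. This bears on the placing only, and read coverage at these genes is not known.
Rpl7a, chr2:26910657-26910816, plus strand: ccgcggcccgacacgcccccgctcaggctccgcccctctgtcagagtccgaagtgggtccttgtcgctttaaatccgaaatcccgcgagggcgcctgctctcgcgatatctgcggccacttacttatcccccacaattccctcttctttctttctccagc
Rps28, chr17:33824553-33824712, minus strand: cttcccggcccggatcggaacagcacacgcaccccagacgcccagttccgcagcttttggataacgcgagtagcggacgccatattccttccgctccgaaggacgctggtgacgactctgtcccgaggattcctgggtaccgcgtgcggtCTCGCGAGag
Rpl13, chr8:123102200-123102359, plus strand: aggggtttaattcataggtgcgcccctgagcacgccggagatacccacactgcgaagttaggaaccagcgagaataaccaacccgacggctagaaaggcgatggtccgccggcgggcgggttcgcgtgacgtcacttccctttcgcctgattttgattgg

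A gene was counted as having a peak when a peak centre lay within 5 kb of its start, after each 10 Mb block of peaks had been shifted to fit the gene starts of the table. The shifts were found from the peaks themselves, so that peaks lie near starts in general (80.5% of the kept peaks within 1 kb) is not a result. Members and all genes went through the same shifts. A peak lying between neighbouring starts counts for every gene in reach.

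Peaks lay at ribosomal protein genes in all 4 lists, most often for Sin3B. Sin3B peaks were found at 35 of the 82 genes in myoblasts (42.7%), where 12.2% of all placeable genes had one. In myotubes they were found at 42 (51.2%), with 18.6% of all genes. Sin3A peaks were found at 2 of 82 in myoblasts (2.44%), next to 2.22% of all genes, which is no more than the background. In myotubes Sin3A peaks were found at 10 (12.2%), next to 4.15% of all genes. In any list, 51 ribosomal protein genes (62.2%) had a peak and 22.9% of all genes did.

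Among genes with CpG-rich promoters, a comparison added after seeing the data, more of all genes had peaks. Any peak was found at 25 of 37 such ribosomal protein genes (67.6%) and at 39.6% of all 6383 such genes. For Sin3B in myotubes the shares were 51.4% and 33%, for Sin3B in myoblasts 51.4% and 20%. For Sin3A in myotubes they were 13.5% and 7.82%. Sin3A in myoblasts stood at 0 of the 37 and at 3.51% of all such genes.

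The numbers in myoblasts and myotubes depend on the lengths of the lists. When each list was cut to its 691 widest peaks, Sin3B peaks remained at 10 ribosomal protein genes in myoblasts (12.2%, all genes 4.21%) and at 7 in myotubes (8.54%, all genes 4.14%), which turns the order of the stages. With the wider peaks of each list, Sin3B stood at 20 genes at either stage (24.4%). The shares of all genes were then 6.98% in myoblasts and 10.4% in myotubes. Sin3A in myotubes stood at 5 (6.1%, all genes 2.05%).

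**Figure D1:**
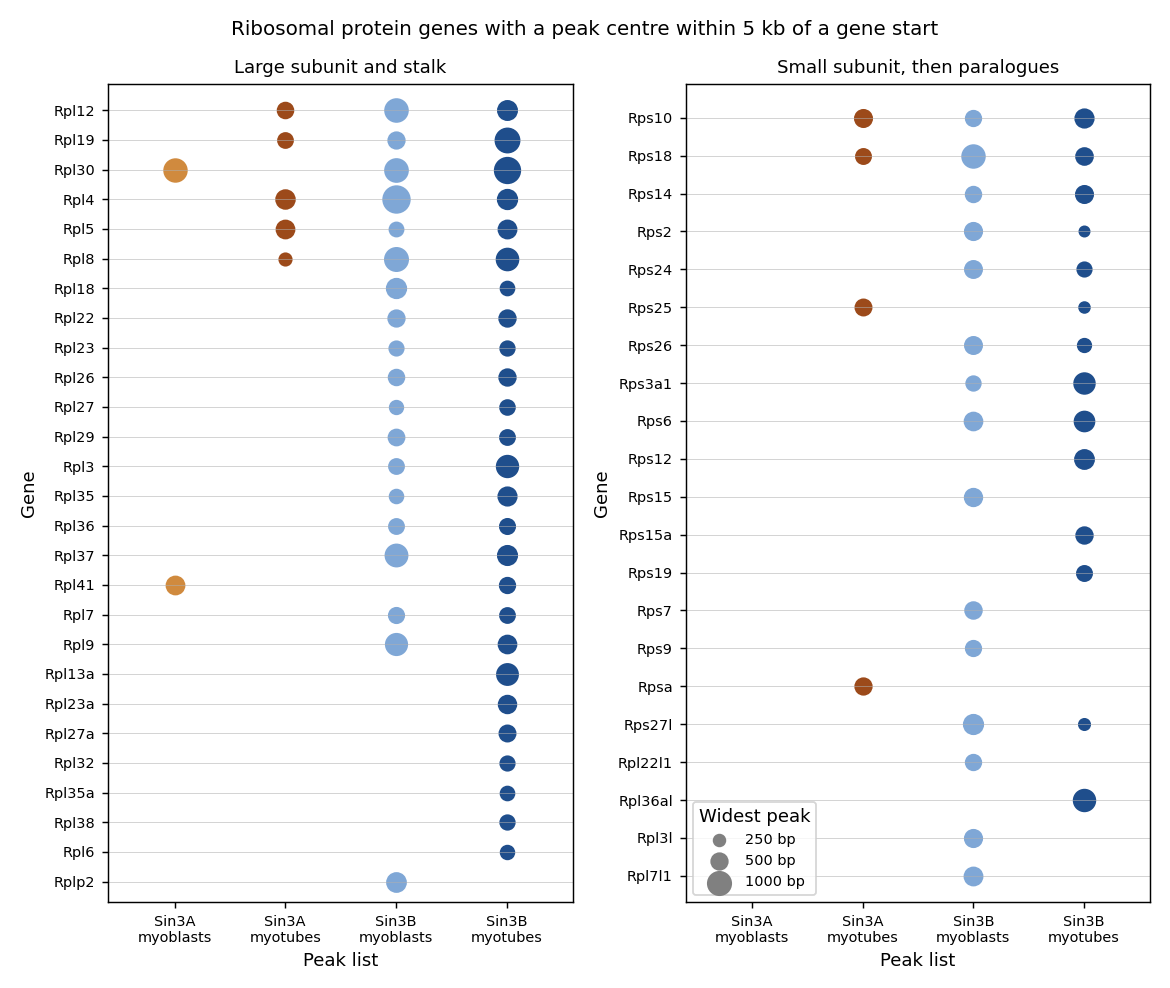
Of the 51 ribosomal protein genes with a peak, 48 are shown by list, with large subunit and stalk genes on the left and small subunit genes and paralogues on the right. A point marks a peak centre within 5 kb of the gene start at the 1 kb step shift, and its area follows the width of the widest such peak in bp; 8 genes have points in 3 lists and none in 4.

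None of these genes had a peak in all 4 lists, while 108 of all placeable genes did (0.526%). Peaks in 3 lists were found at 8 genes (9.76%, all genes 2.21%), in 2 lists at 22 (26.8%, all genes 8.29%), in 1 list at 21 (25.6%, all genes 11.9%) and in none at 31 (37.8%, all genes 77.1%). Rpl12, Rpl19, Rpl4, Rpl5, Rpl8, Rps10 and Rps18 had Sin3A in myotubes with Sin3B at both stages. Rpl30 had Sin3A in myoblasts with Sin3B at both stages. No ribosomal protein gene had Sin3A at both stages, whereas 34.2% of all genes with Sin3A in myoblasts also had it in myotubes; with 2 genes on the myoblast side this says little about the members.

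Of the large subunit genes in 3 lists, Rpl5 encodes the protein that, with Rpl11, carries 5S rRNA into the ribosome. Its peaks lay 226 bp (Sin3A, myotubes), 106 bp (Sin3B, myoblasts) and 352 bp (Sin3B, myotubes) downstream of the start. They covered chromosome 5 from 108329554 to 108330280 in the files' own build. The partner gene Rpl11 had no peak in any list.

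Rpl19, whose product takes part in a bridge to the small subunit, had a Sin3A peak of 412 bp centred 381 bp downstream of its start in myotubes. Its Sin3B peak was centred 33 bp upstream in myoblasts and 298 bp downstream in myotubes. A further Sin3B peak in myotubes lay nearer to the start of Cacnb1.

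Rpl4, whose product lines part of the exit tunnel for the growing chain, shares its surroundings with Zwilch. In myoblasts a single Sin3B peak of 1300 bp, on chromosome 9 from 64020312 to 64021611, spanned the place. This peak was centred 326 bp upstream of the Rpl4 start and was nearest to Zwilch. With each peak given only to its nearest start, Rpl4 was left with 2 lists. In myotubes both proteins had a pair of peaks there. The Sin3A centres lay 707 bp upstream and 183 bp downstream of the Rpl4 start, and the Sin3B centres 767 bp upstream and 105 bp downstream. The upstream peak of each pair was nearer to Zwilch and the downstream one to Rpl4.

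Rpl8 encodes a protein close to the peptidyl transferase centre. Its start was known only by its gene ends, so distances carry no direction. The Sin3A peak in myotubes was 281 bp wide and lay 431 bp away. The Sin3B centres nearest to it lay 910 bp away in myoblasts and 396 bp in myotubes. A further Sin3B peak in myoblasts was nearer to Commd5.

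Rpl12, a protein of the stalk base, had Sin3A and Sin3B peaks in myotubes centred 313 and 416 bp downstream of its start. Its Sin3B peak in myoblasts lay 5359 bp downstream by the finer shift and so falls outside the 5 kb limit there, which leaves Rpl12 with 2 lists. The myoblast and myotube peaks at Rpl12 did not overlap.

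Rpl30 was the only one of the 82 genes with a Sin3A peak in myoblasts that was nearest to the gene itself. For Rpl30 only gene ends were known, so the distance of 604 bp carries no direction and may be to either end. Its 3 peaks were broad, at 942 bp (Sin3A, myoblasts), 964 bp (Sin3B, myoblasts) and 1195 bp (Sin3B, myotubes). All 3 overlapped on chromosome 15 between 34372553 and 34373801. The 1195 bp peak was the widest Sin3B peak in myotubes at any ribosomal protein gene.

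On the small subunit, Rps10, a protein near the mRNA entry site that is ubiquitinated at collided ribosomes, had 3 peaks at nearly 1 place. The centres lay 345 bp (Sin3A, myotubes), 401 bp (Sin3B, myoblasts) and 377 bp (Sin3B, myotubes) downstream of its start. Rps18, a protein of the head of the small subunit, lies back to back with Vps52. Its Sin3A peak in myotubes was centred 93 bp downstream and 1 Sin3B peak in myotubes 117 bp downstream. The Sin3B peak in myoblasts, 945 bp wide and centred 320 bp upstream, and the second Sin3B peak in myotubes were nearer to Vps52.

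The other genes with Sin3A had fewer lists. Rps25, needed for initiation at internal entry sites of several viruses and mRNAs, had Sin3A and Sin3B in myotubes, but the Sin3A centre, 320 bp upstream, was nearer to Trappc4, and the Sin3B peak of 212 bp lay 133 bp downstream. Rpsa, whose product is also known as a laminin receptor, had Sin3A in myotubes and no Sin3B peak at either stage. Its Sin3A centre lay 189 bp downstream of the start. Around Rpsa no other peak lay within 1 Mb, so its place rests on more distant peaks. Rpl41, the gene of the shortest ribosomal protein, had Sin3A in myoblasts and Sin3B in myotubes, centred 1292 and 1193 bp downstream of its start and nearer to Zc3h10. With a limit of 1 kb, or with each peak given only to its nearest start, Sin3A in myoblasts was left at 1 ribosomal protein gene.

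Sin3A and Sin3B were both present in myotubes at 8 of the 82 genes (9.76%), against 3.61% of all genes. Of the 10 genes with Sin3A in myotubes, 8 (80%) also had Sin3B there, and 87% of all genes with Sin3A did. Of the 42 genes with Sin3B in myotubes, 8 (19%) also had Sin3A, next to 19.4% of all genes with Sin3B.

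Sin3B stood at both stages at 28 of 82 genes (34.1%), next to 8.76% of all genes. It was found in myotubes only at 14 (17.1%, all genes 9.87%) and in myoblasts only at 7 (8.54%, all genes 3.42%). Among genes with CpG-rich promoters the order differed between these classes. Sin3B in myotubes only stood at 5 of 37 ribosomal protein genes (13.5%), below the 18.3% of all such genes. Sin3B in myoblasts only also stood at 5 of 37 (13.5%, all such genes 5.26%), and Sin3B at both stages at 14 (37.8%, all such genes 14.7%). Read from each list, 28 of the 35 genes with Sin3B in myoblasts (80%) kept a peak in the myotube list, and 71.9% of all genes did. Conversely 28 of the 42 genes with Sin3B in myotubes (66.7%) also had it in myoblasts, next to 47% of all genes.

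The genes with Sin3B at both stages whose peaks lay nearest to the start came from both subunits. Rpl37 had centres 6 and 128 bp downstream of its start in myoblasts and myotubes. Rpl22 had a centre 10 bp upstream in myoblasts and 178 bp downstream in myotubes. Rpl26, a protein also known to bind the p53 mRNA, had centres 51 bp upstream and 266 bp downstream. In all 3 the myotube centre lay further into the gene.

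Rpl18 moved the other way, from 245 bp downstream in myoblasts to 54 bp upstream in myotubes, where the peak was nearest to Sphk2. Rpl9, which shares its promoter region with Lias on the opposite strand, had centres 101 and 33 bp downstream. Rps26 had centres 213 and 25 bp upstream, and Rps3a1 67 and 479 bp downstream.

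At Rpl27 the peaks of the stages did not overlap, with centres 79 bp downstream in myoblasts and 934 bp downstream in myotubes. Rps6, Rps14, Rps2, Rps24, Rpl23, Rpl29, Rpl3, Rpl35, Rpl36, Rpl7 and the paralogue Rps27l were among the other genes with Sin3B at both stages. At Rps24 both peaks lay nearer to Polr3a, which encodes the largest subunit of RNA polymerase III. At Rps2 the myoblast peak lay 4164 bp downstream and nearest to Ndufb10, while the myotube peak was centred 95 bp downstream. Rps24 and Rps2 are described because of these values.

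The myotube peak overlapped the myoblast peak at 21 of the 28 genes (75%), and at 1662 of 1798 of all genes with Sin3B at both stages (92.4%). The 7 without overlap were Rpl12, Rpl27, Rpl35, Rps2, Rpl3, Rpl36 and Rpl7. Some of these were counted at both stages through a peak nearest to another gene. This was so for the myoblast peaks of Rps2 (Ndufb10) and Rpl36 (Micos13) and the myotube peak of Rpl7 (Rdh10). The myoblast peak of Rpl12 lay beyond 5 kb by the finer shift. Whether neighbouring peaks account for the lower share with overlap was not tested. For the 20 with a known strand, the centre in myotubes minus that in myoblasts had a median of 154.8 bp along the gene (all 1429 genes: 36.5 bp). It lay downstream at 13 and upstream at 7, and over all genes downstream at 827 and upstream at 599. The largest changes were at Rpl12 and Rps2, where separate peaks were compared, followed by Rpl27 with 855 bp and Rpl35 with 835 bp. These differences do not depend on the shift, because both peaks of a gene move together.

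**Figure D2:**
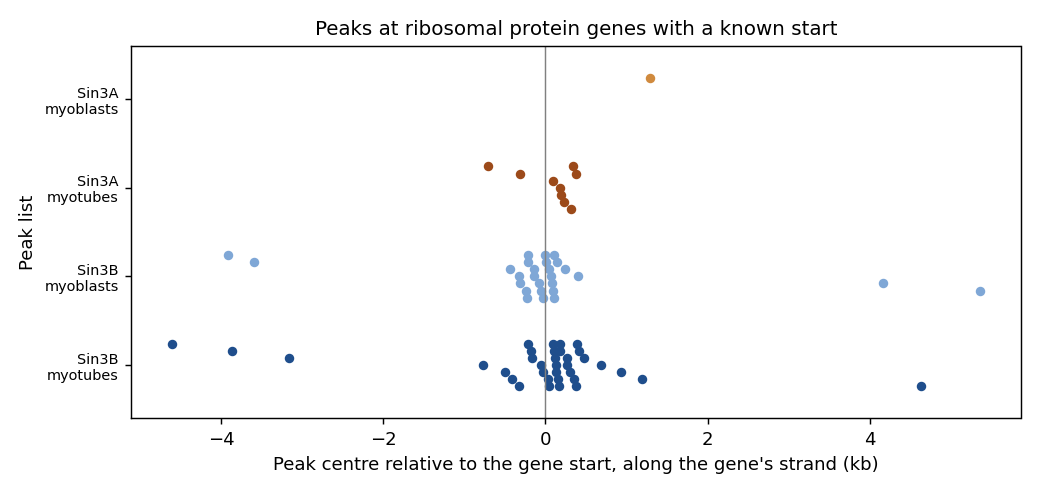
Each point is a peak at a ribosomal protein gene with a known start, placed by the distance of its centre from the start in kb (positive is downstream along the gene) and by list; vertical spread only separates points. All Sin3A centres in myotubes lie within 1 kb of the start, and 1 Sin3B centre in myoblasts, at Rpl12, lies beyond 5 kb by the finer shift used here.

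By the nearest peak of each gene with a known start, the median centre lay 33 bp upstream for Sin3B in myoblasts (27 genes), 155 bp downstream for Sin3B in myotubes (31 genes) and 207.5 bp downstream for Sin3A in myotubes (8 genes). Over all genes the medians were 41, 148 and 134.5 bp downstream. Within 1 kb, 10 of 23 nearest Sin3B centres were downstream in myoblasts and 21 of 28 in myotubes, and 7 of 8 Sin3A centres in myotubes. Over all genes 1027 of 1787, 2004 of 2825 and 426 of 624 were downstream.

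Peak widths at these genes were near those at all genes in 3 of the 4 lists. Sin3B peaks had a median of 502.5 bp in myoblasts (289 to 1300 bp) and 505 bp in myotubes (191 to 1195 bp), next to 508 and 548.5 bp at all genes. Sin3A peaks in myotubes had a median of 480 bp (281 to 643 bp), next to 475 bp. The 2 Sin3A peaks in myoblasts were 595 and 942 bp wide, next to a median of 433 bp at all genes.

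The 14 genes with Sin3B in myotubes only included Rps19, the gene most often mutated in Diamond-Blackfan anaemia, with a peak of 423 bp centred 39 bp downstream of its start. Rpl23a, Rpl6, Rpl27a, Rps15a and Rpl32 had centres 169 to 266 bp from a start or gene end. Rpl35a had a centre 180 bp upstream, nearest to Iqcg, and Rps12 one 217 bp upstream. Rpl38, Rpl13a and Rpl36al belonged to the same class, as did Rps25 and Rpl41. Rpl13a was counted through a peak of 817 bp, centred 4625 bp downstream of its start and nearer to another gene start.

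The 7 genes with Sin3B in myoblasts only were Rps7, Rps9, Rps15, Rplp2 and the paralogues Rpl22l1, Rpl7l1 and Rpl3l. Rps7, Rps9 and Rplp2 had centres 219, 244 and 85 bp upstream of the start, and Rps15 99 bp downstream. Rplp2 was the only one of the 3 stalk genes with a peak; the stalk, made of the products of Rplp0, Rplp1 and Rplp2, recruits elongation factors. Rplp0 and Rplp1 had no peak. Of the other peaks within 1 Mb, 16 of 17 around Rplp0 and 3 of 6 around Rplp1 lay near a gene start. Rplp1 was placed by its gene ends only.

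By subunit, the shares were alike in myoblasts. Of 30 small subunit genes, 12 (40%) had Sin3B in myoblasts and 14 (46.7%) in myotubes. Of 44 large subunit genes, stalk included, 19 (43.2%) had it in myoblasts and 26 (59.1%) in myotubes. Any peak was found at 19 small subunit genes (63.3%) and 27 large subunit genes (61.4%). Sin3A in myotubes stood at 5 genes of either subunit, 16.7% of the small and 11.4% of the large.

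The 8 paralogues, variants of a canonical gene that can be expressed in fewer tissues, were counted apart. Sin3B stood at 4 of 8 in myoblasts and 2 of 8 in myotubes, and Sin3A at none. Rpl3l, the paralogue of Rpl3 that is largely restricted to skeletal muscle and heart, had a Sin3B peak in myoblasts only. That peak was centred 3599 bp upstream of the Rpl3l start, was nearest to Ndufb10, also counted for Rps2 and was lost with a limit of 1 kb. The canonical Rpl3 had Sin3B at both stages.

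Rpl22l1 and Rpl7l1 had Sin3B peaks in myoblasts only, centred 138 bp upstream and 38 bp downstream of their starts. Rpl22 and Rpl7 had peaks at both stages, but the myotube peak of Rpl7 lay 1724 bp from a gene end and was nearest to Rdh10. Rps27l, a paralogue known as a p53 target, had Sin3B at both stages, 138 and 155 bp downstream, and Rps27 had none. Rpl36al had a peak in myotubes, 416 bp upstream and nearer to Mgat2, and the X-linked Rpl36a had none. Rpl10l and Rpl39l, known from the testis, and Rpl32l had no peak, but the places of Rpl10l and Rpl32l were not supported by nearby peaks. Of their canonical counterparts, Rpl10 and Rpl39 had none and Rpl32 had Sin3B in myotubes.

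No peak was found at 31 of the 82 genes. At 19 of them other peaks within 1 Mb supported the placing, among them Rpl10a, Rpl11, Rpl13, Rpl14, Rpl24, Rpl28, Rpl39l, Rpl7a, Rplp0, Rplp1, Rps16, Rps20, Rps27, Rps27a, Rps28, Rps29 and Rps3. For the other 12, among them Rpl10l, Rpl15, Rpl31, Rpl32l and the 4 X-linked genes Rpl10, Rpl36a, Rpl39 and Rps4x, fewer than 3 other peaks lay within 1 Mb or under 50% of them lay near a gene start, and a missed placing cannot be told apart from a missing peak. Such support was also lacking for 6 genes with a peak, namely Rpl22l1, Rps12, Rps24, Rps27l, Rps3a1 and Rpsa.

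On chromosome 7, which holds the most ribosomal protein genes, 9 of 14 had a peak (all genes there: 237 of 1987). On chromosome 15 all 4 had one (all genes: 264 of 735), and on chromosome 11 6 of 7 (all genes: 487 of 1607). On chromosome 16 it was 1 of 3 (all genes: 141 of 605). No ribosomal protein gene had a peak among the 2 on chromosome 8 (all genes: 328 of 1032), the 1 on chromosome 13 (all genes: 150 of 698) and the 4 on chromosome X (all genes: 43 of 827). At the shift used for counting, at least 1 peak was nearest to the gene's own start or gene end for 45 genes. At the other 6, Rpl13a, Rpl36al, Rpl3l, Rpl41, Rpl9 and Rps24, every peak was nearer to another start at that shift. The finer shift put both Rpl9 peaks nearest to Rpl9. It put the only Rpl35a peak, counted among the 45 genes, nearest to Iqcg.

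The promoters were searched on both strands in the 300 bases around the start (250 before, 50 after), which were found for 65 of the 85 genes and for 17492 of all genes. The ETS/GABP core CCGGAAG was in 25 of the 65 (38.5%) and in 11.9% of all promoters. Of the genes printed above, Rpl19, Rps10 and Rps18 hold it in capitals. Rpl12, Rpl4 and Rpl5, which have peaks, do not hold it in their windows, and neither do the 3 without a peak. Rpl11 and Rpl39l, not printed, hold it and have no peak, so the printed genes do not stand for the whole. The core was in 19 of the 39 searched promoters with a peak (48.7%) and in 5 of the 25 without one (20%). Among the genes with Sin3A in myotubes it was in 5 of 8 (62.5%), namely Rpl19, Rps10, Rps18, Rps25 and Rpsa.

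Read the other way, 19 of 24 placeable ribosomal protein genes with the ETS/GABP core had a peak (79.2%), and 20 of 40 without it (50%). Over all genes the shares were 51.9% of 1956 with the core and 19.2% of 14470 without it. The difference in shares with and without the core thus appeared among all genes as well. The 5 genes with the core and no peak were Rpl11, Rpl15, Rpl31, Rpl39 and Rpl39l, of which Rpl15, Rpl31 and Rpl39 lie in places without local support.

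**Figure D3:**
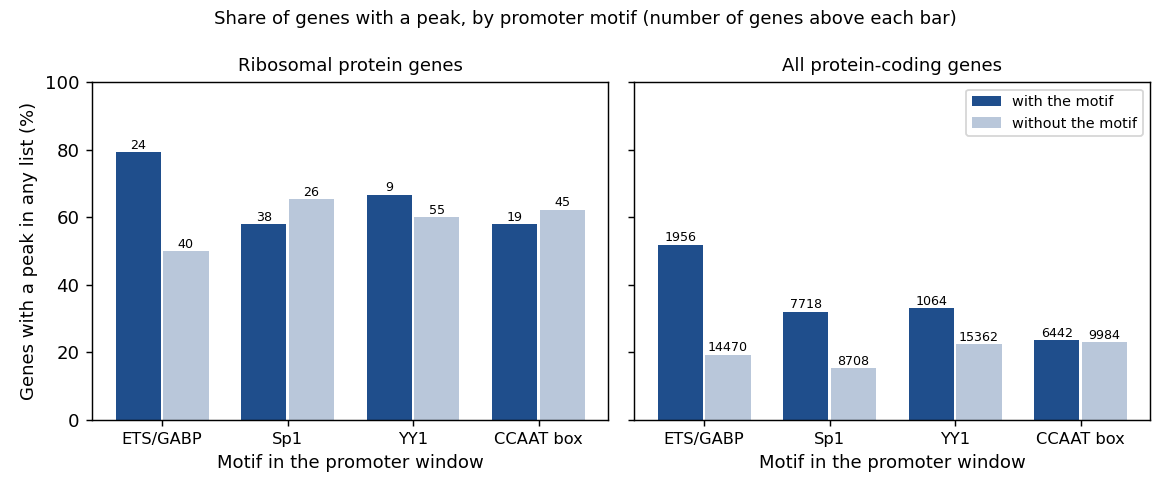
Bars give the percent of placeable genes with a peak in any list among genes whose 300 base promoter window holds a motif (dark) or not (light), for ribosomal protein genes on the left and all protein-coding genes on the right, with the number of genes above each bar. For ETS/GABP the dark bar stands above the light one in both panels, at 79.2% against 50% and at 51.9% against 19.2%.

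The YY1 core AAGATGG was in 9 of the 65 promoters (13.8%, all genes 6.37%) and the Sp1 box GGGCGG in 39 (60%, all genes 46.3%). The Sp1 box was in 56.4% of the promoters with a peak and 64% of those without. Over all genes 32% with the Sp1 box had a peak and 15.2% without it, while among ribosomal protein genes the shares were 57.9% and 65.4%. The BANP/ZBTB33 motif CTCGCGAG was in 6 promoters (9.23%, all genes 1.3%), those of Rpl12, Rpl26, Rpl27a, Rps19, Rps6 and Rps28. All but Rps28 had a Sin3B peak; 54.6% of all 216 genes with the motif had a peak in any list.

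The MYC type E-box CACGTG, the MyoD type E-box CAGCTG and the NRF1 motif GCATGCGC were in 5, 4 and 2 of the 65 promoters, 7.69%, 6.15% and 3.08%. Over all genes the shares were 7.9%, 15.1% and 3.61%. The E2F motif TTCCCGC was in 7 (10.8%, all genes 5.99%) and the CCAAT box in 20 (30.8%, all genes 39%). A TATAAA in the 60 bases before the start, on the sense strand only, was in 1 (1.54%, all genes 3.79%). The motifs differ in length, and GGGCGG and CCAAT occur often in any GC-rich or mixed sequence.

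An annotated start at a C followed by 4 more pyrimidines was found in 13 of the 65 genes (20%) and in 2.17% of all genes. It is visible at the end of the Rps10 and Rps18 sequences. Genes with a peak had it in 7 of 39 (17.9%) and genes without one in 5 of 25 (20%). CpG-rich promoters made up 38 of 65 (58.5%, all genes 38.3%), 64.1% of those with a peak and 48% of those without. A start on the opposite strand within 1 kb was found at 9 of the 65 (13.8%, all genes 9.61%). Small nucleolar RNA genes lie inside 30 of the 85, 19 of the 51 with a peak and 9 of the 31 without one. The same count was not made over all genes.

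**Figure D4:**
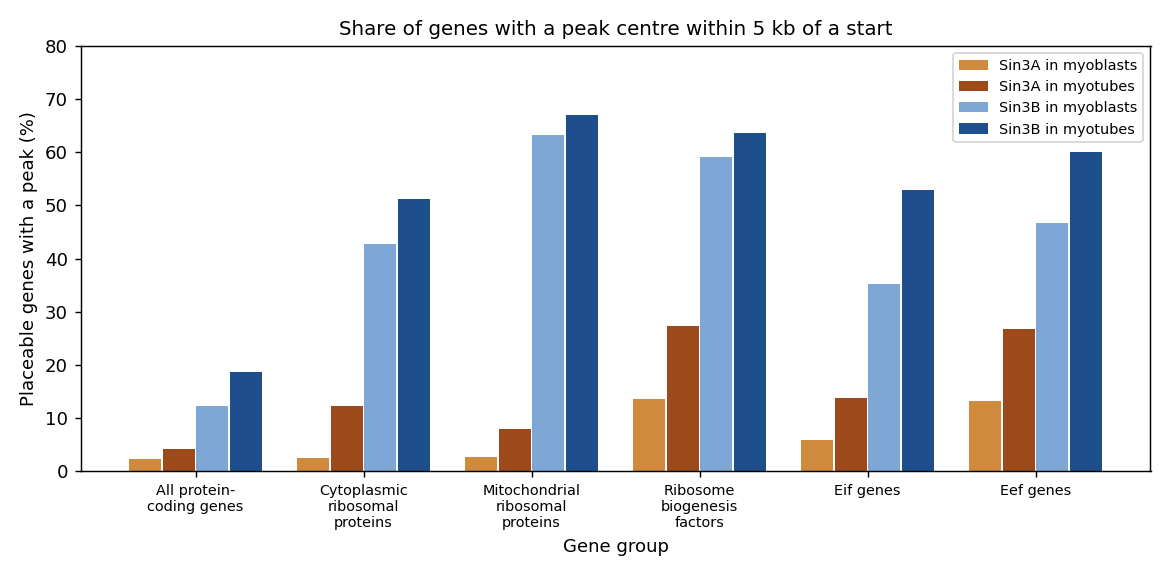
Bars give the percent of placeable genes in each group with a peak centre within 5 kb of a start, by list. In cytoplasmic ribosomal protein genes Sin3B reaches 42.7% in myoblasts and 51.2% in myotubes, above all protein-coding genes (12.2% and 18.6%) and below mitochondrial ribosomal protein genes (63.2% and 67.1%). Eif and Eef genes were taken by symbol and include modifying enzymes.

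Other genes of the translation machinery were counted in the same way. Fau, which encodes a ribosomal protein fused to a ubiquitin-like protein, had Sin3B at both stages and no Sin3A. Mitochondrial ribosomal protein genes had Sin3B at 48 of 76 in myoblasts (63.2%) and at 51 in myotubes (67.1%), and Sin3A at 2 and 6. Ribosome biogenesis factors had Sin3B at 39 and 42 of 66 (59.1% and 63.6%), and Sin3A at 9 (13.6%) and 18 (27.3%). In the Sin3A lists these factors thus had larger shares than the ribosomal protein genes, which had 2.44% and 12.2%. Among the factors with Sin3A at both stages were Ncl, which encodes nucleolin, Nop56 of the box C/D particles, and Bop1, which acts in large subunit maturation; each had peaks in all 4 lists.

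Genes with an Eif symbol, which are initiation factors together with kinases of eIF2 (Eif2ak) and inhibitors of eIF4E (Eif4ebp), had Sin3B at 18 and 27 of 51 (35.3% and 52.9%) and Sin3A at 3 and 7. Among the 3 with Sin3A in myoblasts was the kinase gene Eif2ak3. Genes with an Eef symbol, which are elongation factors together with their methyltransferases and a kinase, had Sin3B at 7 and 9 of 15 and Sin3A at 2 and 4. Eef2, the translocase, had peaks in 3 lists, and the methyltransferase gene Eef1akmt3 in all 4. Of 13 placeable regulators of ribosomal protein transcription and translation, some of them also counted under Eif, 8 had a Sin3B peak in myotubes and 5 in myoblasts. Gabpa, Yy1, Mtor, Rptor and Tsc2 had it at both stages, and Larp1, Sp1, Taf1, Eif4ebp1 and Tsc1 had no peak in any list.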

How the data were processed

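The authors deposited peak intervals (chromosome, start, end) without score, height or header; these positions are the only values used. How reads were aligned and peaks called, from which samples, at which threshold and in which genome build was not given in the sources used here. Per the labels' protocols, libraries took 18 PCR cycles and fragments of about 350 bp. Positions are printed 1-based in the files' own build.

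Gene starts came from RefSeq tables (GRCm38.p6). Per 10 Mb block of peaks, the shift of up to 8 Mb either way, in 1 kb steps, that put most centres within 1 kb of a start was used. Blocks reaching 50% were kept (254 of 267, with 95.1% of 7606 peaks). Without a shift 8.97% of all peaks lay within 1 kb. Of the kept blocks 56 held under 10 centres, where a fit means little. Shifts lay within 2 kb for 133 of 218 pairs of neighbouring kept blocks. With only blocks of at least 10 centres, 50 of 75 placeable ribosomal protein genes had a peak in any list (66.7%, all genes 24.2%). Distances use a shift refined in 50 bp steps. For 20 of the 85 genes only gene ends were known and both were used. CpG-rich meant at least 55% GC and an observed to expected CpG ratio of 0.65. Local support meant at least 3 other peaks of the block within 1 Mb, at least 50% of them near starts.

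Genes named with values were those with peaks in 3 lists or with Sin3A, up to 10 per Sin3B class by smallest distance, and paralogues; others were named for their values and were chosen after seeing them. Some genes enter the counts but are not reported here by name. Members and lists were chosen with earlier results of these data known. On 1 set of simulated lists with known shifts of up to 4 Mb, in which 80% of peaks were planted at gene starts, 244 of 247 kept blocks got the true shift within 1 kb. The kept shifts of the data ran from -7.25 to 5.75 Mb. Shifts beyond 4 Mb, as on much of chromosome 7, were therefore not simulated. Each simulated block also had only 1 shift. Alternatives were limits of 1 and 10 kb, nearest start or peak edge, other block rules, and wider peaks. Python 3.11.15, numpy 2.4.6 and matplotlib 3.10.9 were used.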

Additional observations from a re-analysis of the deposited data

How the results depend on the processing

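Only 1 distinct list per group existed, so leaving out a replicate was not possible. No paired analysis was possible because all files of a group were identical. The counts followed the choice of peaks and list length. With the wider peaks of each list, Sin3A in myotubes stood at 5 ribosomal protein genes, Sin3B in myoblasts and in myotubes at 20 each, and Sin3B at both stages at 8. With each list cut to its 691 widest peaks, Sin3B stood at 10 genes in myoblasts, at 7 in myotubes and at 2 at both stages, and any peak at 21. Fewer peaks were used in both settings, and the share of members stayed above that of all genes for each of these counts. For Sin3B at both stages it was 9.76% with the wider peaks (all genes 3.85%). With the 691 widest peaks it was 2.44% (all genes 1.49%), which rests on 2 genes and is near the background. The share with any peak was then 25.6% (all genes 10.1%). Sin3A in myoblasts fell to 1 gene with a limit of 1 kb, with the nearest start only, and with genes of known start only, where its share lay below that of all genes. The other alternatives kept each count within 1.5 times. Requiring overlapping peaks left Sin3B at both stages at 21 genes. With each peak given only to its nearest start, Sin3B at both stages stood at 22 genes (26.8%, all genes 6.2%). Restriction to known starts or to locally supported places, and the CpG-rich comparison, were chosen after seeing the data. Without depth or scores, a missing peak may lie just under the authors' threshold.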

Other observations

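Other families of constitutively expressed genes were counted by the same rule, with lists chosen after seeing the data. Proteasome subunit genes had Sin3B at 19 of 38 in myoblasts (50%) and at 26 in myotubes (68.4%), and Sin3A at 0 and 2. Aminoacyl-tRNA synthetase genes had Sin3B at 8 of 17 in myoblasts (47.1%) and 14 in myotubes (82.4%), and Sin3A at 2 and 2. Genes of splicing factor 3, snRNP and Lsm proteins had Sin3B at 16 and 25 of 33 (48.5% and 75.8%), and Sin3A at 2 and 6. RNA polymerase II subunit genes had Sin3B at 8 of 13 at either stage (61.5%), and Sin3A at 1 and 2. Sin3A in myotubes thus stood at 5.26% of the proteasome, 11.8% of the synthetase, 18.2% of the splicing and 15.4% of the polymerase genes, with 12.2% of the cytoplasmic ribosomal protein genes. Any peak was found at 76.3% of the proteasome, 88.2% of the synthetase, 81.8% of the splicing and 76.9% of the polymerase genes, each above the 62.2% of the cytoplasmic ribosomal protein genes. These families differ in size and in promoter type, and the differences were not tested.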
